A study of Mus musculus with 2 samples.

Results

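Interferon-stimulated genes were examined in the few spots of 2 mouse liver sections where their transcripts were concentrated. The 10 genes were Rsad2, Ifit1, Ifit2, Ifit3, Oasl1, Isg15, Usp18, Irf7, Cmpk2 and Cxcl10, of which 9 were matched by symbol in the count tables. Isg15 was not analysed here. A spot was called focal when the UMIs (unique molecular identifiers, each marking 1 captured molecule) of Rsad2, Ifit3 and Oasl1 summed to 5 or more, among spots with at most 50000 UMIs. By this rule 87 of 4472 spots were focal, 38 of 2309 in the AEG-1-WT section and 49 of 2163 in the AEG-1-C75S section. The counts of these 3 defining genes chose the spots, so their own values there are a description. The other 6 genes, Ifit1, Ifit2, Cmpk2, Usp18, Irf7 and Cxcl10, took no part in the choice.

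The study set a wild-type liver beside the liver of a knock-in mouse, made by CRISPR/Cas9, in which a cysteine of AEG-1 (encoded by Mtdh) that accepts palmitate was replaced by serine, named C75S. Both animals were untreated female littermates of 8 weeks from heterozygous parents, and 1 section of 5 µm from formalin-fixed, paraffin-embedded tissue of each was profiled on a Visium slide. A spot covers a small patch of tissue that can hold several cells, mostly hepatocytes with the non-parenchymal cells between them. With 1 section per genotype there is no replicate, so no test was made and every interval below is a 95% interval for counting error alone.

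Type I interferons (interferon-α and interferon-β) and type III interferons are made by cells that sense foreign or misplaced nucleic acid. They bind surface receptors whose JAK kinases activate a complex of transcription factors that holds STAT2 and IRF9, and this complex switches on interferon-stimulated genes through a promoter element called the ISRE. Interferon-γ, made mainly by T and NK cells, works through another receptor and an element called GAS, and induces a set of genes that overlaps the first. In liver, hepatocytes, Kupffer cells and endothelial cells can all respond to interferon.

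The promoters are shown because a shared element before the start is what the members are known for. RefSeq promoter windows (GRCm38.p6), each reaching from 250 bases before to 50 bases after a transcription start, were matched for 8 of the 9 measured genes, all but Usp18. The ISRE core was searched as GAAA, any 2 bases and GAAA again, or TTTC, any 2 bases and TTTC again, which are the same element read on either strand. It lay in the windows of 4 of these 8 genes, Rsad2, Ifit1, Ifit3 and Cxcl10, and in windows of 3.99% of all 27025 genes. Counted by window, it lay in 4 of the 9 windows of these genes and in 3.44% of all 32851 windows. The capitals below mark the core, with 10 bases on each side, printed 5′ to 3′ on the gene's strand.
Rsad2, 111 bases before the start, chr12:26456553-26456582, minus strand: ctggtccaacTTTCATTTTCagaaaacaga
Ifit1, 95 bases before the start, chr19:34640775-34640804, plus strand: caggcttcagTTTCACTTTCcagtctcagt
Ifit1, 76 bases before the start, chr19:34640794-34640823, plus strand: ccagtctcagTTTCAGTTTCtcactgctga
Ifit3, 147 bases before the start, chr19:34583363-34583392, plus strand: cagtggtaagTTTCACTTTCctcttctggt
Ifit3, 113 bases before the start, chr19:34583397-34583426, plus strand: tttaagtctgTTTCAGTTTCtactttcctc
Cxcl10, 204 bases before the start, chr5:92349083-92349112, minus strand: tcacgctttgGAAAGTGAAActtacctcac

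Ifit1 and Ifit3 carried the same pair of cores, TTTCACTTTC followed by TTTCAGTTTC, at different spacing. Rsad2 and Cxcl10 carried 1 core each, and their upstream stretches are given whole, at chr12:26456453-26456702 and chr5:92348890-92349139, as the clearest look at the setting of the element in an effector gene and in a chemokine gene.
Rsad2 upstream: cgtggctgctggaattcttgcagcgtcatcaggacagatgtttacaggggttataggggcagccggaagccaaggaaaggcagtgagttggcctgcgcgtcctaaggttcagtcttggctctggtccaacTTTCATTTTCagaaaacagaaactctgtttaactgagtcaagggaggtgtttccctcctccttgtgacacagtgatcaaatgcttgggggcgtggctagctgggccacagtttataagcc
Cxcl10 upstream: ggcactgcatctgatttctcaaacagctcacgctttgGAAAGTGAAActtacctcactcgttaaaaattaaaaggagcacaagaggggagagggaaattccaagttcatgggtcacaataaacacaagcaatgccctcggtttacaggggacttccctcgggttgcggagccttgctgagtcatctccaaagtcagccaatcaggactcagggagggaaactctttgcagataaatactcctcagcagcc

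No core with these letters was found in the windows of Oasl1, Cmpk2, Irf7 or Ifit2. The GAS core was searched as TTC, any 3 bases and GAA, which reads the same on either strand. It lay in a window of 1 of the 8 genes, Ifit2, and in windows of 9.55% of all genes. Counted by window, it lay in 1 of the 9 windows of these genes and in 8.30% of all windows. For comparison, the ISRE core lay in windows of 12 of 32 other interferon-stimulated genes and of 8 of 12 genes best known from interferon-γ. Several members are neighbours in the genome (GRCm38.p6). Rsad2 (chr12:26442743-26456452) and Cmpk2 (chr12:26469117-26479837) are separated by 12664 bases. Ifit1, Ifit2 and Ifit3 lie within 99460 bases of chromosome 19.

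Transcripts of the defining genes were scarce in most of the tissue and dense in few places. In the AEG-1-WT section 1149 of 2309 spots held no UMI of Rsad2, Ifit3 or Oasl1, and in the AEG-1-C75S section 926 of 2163 held none. Focal spots made up 1.65% of the AEG-1-WT section (95% Clopper-Pearson interval 1.17 to 2.25) and 2.27% of the AEG-1-C75S section (1.68 to 2.98), shares whose intervals overlap. The median focal spot held 6 UMIs of the 3 genes in both sections. The highest held 108 in AEG-1-WT liver and 71 in AEG-1-C75S. At the threshold the distribution had no gap, with 46 wild-type and 45 AEG-1-C75S spots at 4 UMIs, just outside, and 8 and 21 spots at 5 UMIs, just inside. Beyond it a long tail followed, with 14 wild-type and 16 AEG-1-C75S spots at 10 or more UMIs and 7 and 6 spots at 20 or more.

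**Figure D1:**
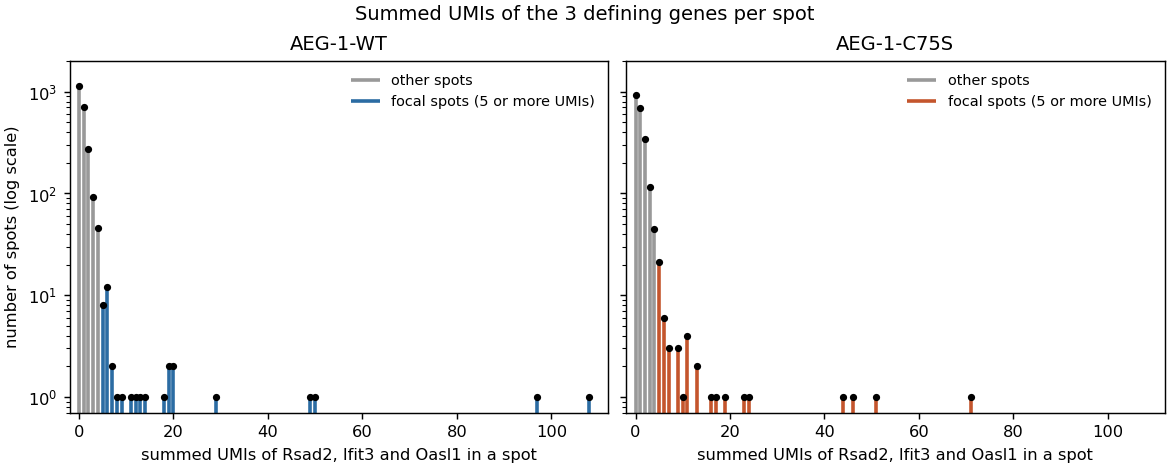
Number of spots (log axis) by the summed UMIs of Rsad2, Ifit3 and Oasl1 in a spot, for the AEG-1-WT section (left) and the AEG-1-C75S section (right), with focal spots coloured and other spots grey. Counts drop from 1149 and 926 spots at 0 UMIs to single spots above 20, with the highest at 108 and 71 UMIs.

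Kept spots summed to 42246988 UMIs in the AEG-1-WT section and 41674347 in the AEG-1-C75S section. The AEG-1-WT focal spots were about as deep as the rest, with a median of 17156 UMIs against 16824. The AEG-1-C75S focal spots were deeper, with 23941 UMIs against 18706, and a threshold in raw UMIs admits a deep spot more readily than a shallow one. Levels are therefore given as CPM, the UMIs of a gene in each 1000000 UMIs of the spots summed. With a threshold of 300 CPM in place of 5 UMIs, the same members were called higher in foci by the rule given below. The sections shared 1887 barcodes, which are slide positions, and no barcode was focal in both. The liver label held, with 8 hepatocyte genes such as Alb and Apoa1 at 211580 CPM in AEG-1-WT focal spots and 210820 in the other spots. Mtdh itself, whose amino acid change these counts cannot show, stood at 74.3 CPM in other spots of the wild-type section and 72.8 CPM in AEG-1-C75S.

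Rsad2 encodes the antiviral enzyme viperin and is a defining gene. Its share of UMIs in the foci was the largest among the 9 measured members, a rank that the rule favours. It had 339 UMIs in the 38 AEG-1-WT focal spots (lowest 0, median 3.5, highest 68 per spot) against 608 UMIs in the 2271 other spots, where no spot had more than 3. In AEG-1-C75S it had 325 UMIs in 49 focal spots (lowest 1, median 4, highest 46) against 778 in 2114 other spots, none above 4. Foci therefore held 35.8% of all Rsad2 UMIs of the AEG-1-WT section (32.7 to 38.9), against 29.5% in AEG-1-C75S (26.8 to 32.3), while holding 1.87% and 2.97% of all UMIs.

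Ifit3, an antiviral RNA-binding protein of the IFIT family, had 167 UMIs in AEG-1-WT foci (highest spot 25) and 179 in AEG-1-C75S foci (highest spot 25), which were 21.6% and 19.8% of its UMIs. Oasl1, a 2′-5′ oligoadenylate synthetase-like protein known to restrain translation of Irf7, had 116 UMIs in AEG-1-WT foci and 76 in AEG-1-C75S foci, 18.6% and 16.2% of its UMIs. It had a UMI in 35 of 38 AEG-1-WT foci but in 33 of 49 AEG-1-C75S foci. All 3 were thus sparse everywhere else and dense in the same few spots, which the rule itself required.

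Each defining gene was also taken in spots chosen by the other 2 alone, again with 5 or more UMIs. This leaves out the gene's own counts but not all circularity. Such spots are all focal by the main rule, and the 3 genes were chosen with earlier results of these sections known. Rsad2 stood at 618 CPM in 19 AEG-1-WT spots chosen by Ifit3 and Oasl1 and at 16.3 CPM in the rest, a 38.0-fold ratio (32.9 to 43.8). In AEG-1-C75S 11 spots were chosen this way, and Rsad2 stood at 666 CPM against 22.3 CPM, 29.9-fold (25.3 to 35.1). Ifit3 in spots chosen by Rsad2 and Oasl1 was 20.1-fold above the rest in AEG-1-WT (20 spots) and 11.6-fold in AEG-1-C75S (22 spots). Oasl1 in spots chosen by Rsad2 and Ifit3 was 14.2-fold above the rest in AEG-1-WT (26 spots) and 6.27-fold in AEG-1-C75S (35 spots). Each of the 3 genes was thus dense in spots chosen without its own counts, which is a description and not support.

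The other members were dense in the same spots, to different degrees. A gene was called higher when its CPM in focal spots was at least 2-fold that of the other spots in both sections and the 95% interval of each ratio lay above 1. By that rule 5 of the 6 other members were called higher, against 0.156% of the 12857 genes tested. Because the members were chosen with earlier results of these sections known, the count describes them and is not support. The exception was Irf7. At a fold of 3, 3 of the 6 were called, Ifit1, Cmpk2 and Usp18. The 0.156% does not apply at that fold. The count of all genes called there, the 3 defining genes among them, is given in the closing section.

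**Figure D2:**
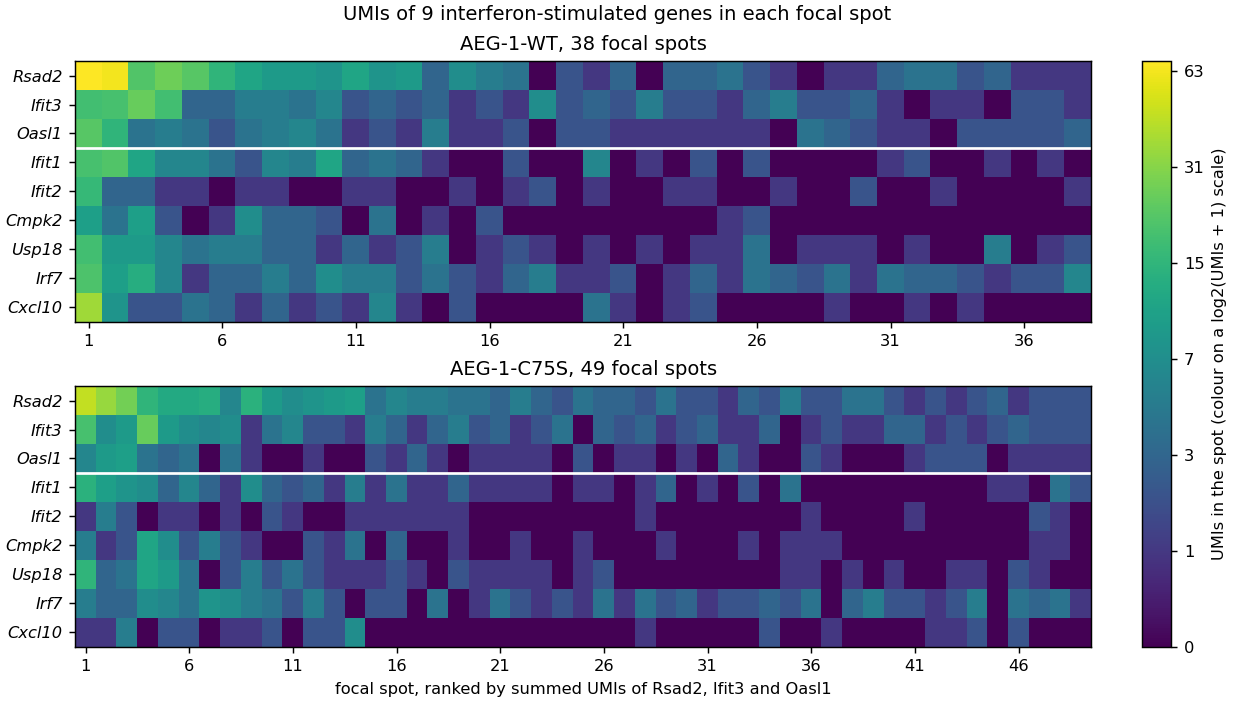
UMIs of 9 members (rows, the 3 defining genes above the white line) in each focal spot (columns, ranked by summed UMIs of the defining genes) of the AEG-1-WT section (top, 38 spots) and the AEG-1-C75S section (bottom, 49 spots), on a log2(UMIs + 1) colour scale. The other 6 members are dense in the leftmost spots, where Rsad2 reaches 68 and 46 UMIs, and thin out to the right, while Irf7 is present in most columns.

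Among the antiviral effectors, Ifit1, which binds viral RNA that lacks the host cap, had 120 UMIs in AEG-1-WT foci (lowest 0, median 1, highest 21) and 379 in other spots. In AEG-1-C75S foci it had 108 UMIs (0, 1 and 14), and 385 in other spots. Its level was 152 CPM against 9.14 CPM in AEG-1-WT liver and 87.1 against 9.52 CPM in AEG-1-C75S, log2 ratios of 4.06 (3.75 to 4.36) and 3.19 (2.87 to 3.51). It was detected in 60.5% of AEG-1-WT foci and 69.4% of AEG-1-C75S foci, against 14.8% and 15.8% of the other spots. With each spot thinned to 5000 UMIs these shares became 36.8% and 32.7% of foci against 4.06% and 4.63% of other spots.

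Ifit2, a relative of Ifit1 from the same gene cluster, had 40 UMIs in AEG-1-WT foci, of which 16 lay in 1 spot, and 26 in AEG-1-C75S foci, with no spot above 5. Its log2 ratios were 2.83 (2.32 to 3.31) and 1.56 (0.92 to 2.14). Without the highest focal spot of each section the AEG-1-WT ratio was 2.13 (1.46 to 2.73), still above the AEG-1-C75S ratio of 1.53 (0.88 to 2.12), with overlapping intervals.

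Cmpk2, a nucleotide kinase whose gene is the neighbour of Rsad2, had 52 UMIs in AEG-1-WT foci (highest 10) and 191 in other spots. It had 56 UMIs in AEG-1-C75S foci (highest 11) and 243 in other spots. The log2 ratios, 3.84 (3.37 to 4.29) and 2.91 (2.46 to 3.33), were close to those of Ifit1 in both sections. It was listed with no UMI in most foci all the same, being detected in 14 of 38 and 23 of 49.

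Usp18, which removes ISG15 from proteins and damps signalling at the type I receptor, had 98 UMIs in AEG-1-WT foci (0, 1 and 18) and 85 in AEG-1-C75S foci (0, 1 and 15). Away from the foci it had 988 and 823 UMIs, and its log2 ratios were 2.38 (2.07 to 2.68) and 1.75 (1.41 to 2.08).

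Irf7, the transcription factor that amplifies type I interferon production, was present throughout both livers, at 66.7 CPM in other spots of AEG-1-WT and 74.4 CPM of AEG-1-C75S. It was detected in 68.2% and 70.3% of those spots. In foci it stood at 182 CPM (144 UMIs; lowest 0, median 3, highest 20) and 113 CPM (140 UMIs; 0, 2 and 8). The log2 ratios were 1.45 (1.20 to 1.69) and 0.60 (0.35 to 0.85), so the AEG-1-C75S ratio fell short of 2-fold.

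Cxcl10, a chemokine that draws CXCR3-bearing T and NK cells, had the widest gap between the ratios of the sections among the members, a gap that was not tested. It had 84 UMIs in AEG-1-WT foci, 37 of them in the highest spot, and 36 in AEG-1-C75S foci, with no spot above 7. Its level was 106 CPM against 7.67 CPM in other spots of AEG-1-WT, and 29.0 against 9.79 CPM in AEG-1-C75S. The log2 ratios were 3.79 (3.43 to 4.15) and 1.57 (1.03 to 2.06). Leaving out the highest focal spot lowered the AEG-1-WT fold from 13.9 to 7.93 (5.71 to 10.8) and left AEG-1-C75S at 2.94 (2.02 to 4.17). Unlike the defining genes, which could not exceed 4 UMIs outside the foci, Cxcl10 reached 8 UMIs in spots outside the foci of both sections, and 3 such spots in each held 5 or more.

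**Figure D3:**
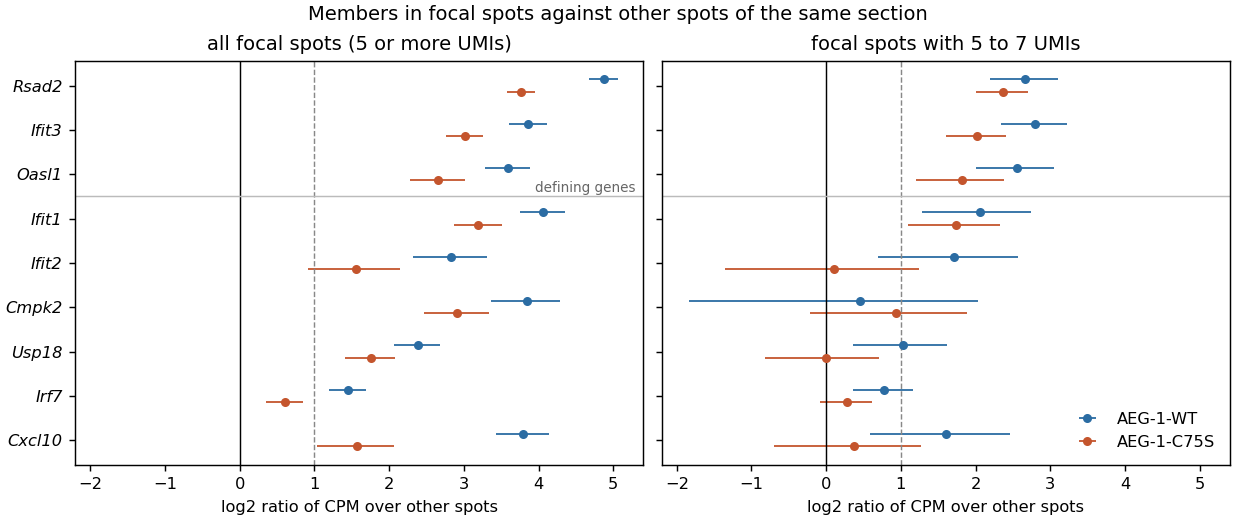
Log2 ratio of CPM in focal spots over all other spots of the same section for 9 members, with 95% counting intervals, over all focal spots (left) and over focal spots with 5 to 7 UMIs (right); the dashed line marks 2-fold and the grey line parts the defining genes from the others. Over all foci every point lies to the right of 0, and in the faint foci of AEG-1-C75S the intervals of Ifit2, Cmpk2, Usp18, Irf7 and Cxcl10 reach 0.

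The density of the other members depended on how bright a focus was. Foci with 5 to 7 UMIs of the defining genes numbered 22 in AEG-1-WT liver and 30 in AEG-1-C75S. In these faint foci Ifit1 was still higher, at a log2 ratio of 2.06 (1.28 to 2.74) in AEG-1-WT liver and 1.74 (1.09 to 2.32) in AEG-1-C75S. In AEG-1-C75S the intervals of the others reached 0 or below, at 0.00 for Usp18 (-0.81 to 0.71), 0.10 for Ifit2 (-1.36 to 1.24), 0.28 for Irf7 (-0.08 to 0.62), 0.38 for Cxcl10 (-0.69 to 1.27) and 0.93 for Cmpk2 (-0.22 to 1.88). In AEG-1-WT faint foci the intervals lay above 0 for Ifit2 at 1.71, Cxcl10 at 1.60, Usp18 at 1.03 and Irf7 at 0.77, and reached below 0 for Cmpk2 at 0.46, which had 3 UMIs there.

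In foci with 10 or more UMIs all 6 other members were called higher, against 0.342% of all genes tested. Ifit1 reached 362 CPM in AEG-1-WT liver and 204 CPM in AEG-1-C75S, 39.5-fold and 21.5-fold above the other spots, and had a UMI in all 14 and all 16 spots. Cmpk2 was 36.2-fold and 20.1-fold above. Irf7 was 4.62-fold (3.69 to 5.72) and 2.29-fold (1.76 to 2.93) above. Spots with 3 to 4 UMIs, just outside the rule, were nearer to spots with none than to bright foci. Ifit1 stood at 12.3 CPM there in AEG-1-WT liver and 15.3 CPM in AEG-1-C75S, against 8.30 and 8.23 CPM where the defining genes had no UMI. Cxcl10 stood at 11.9 and 15.5 CPM, against 6.66 and 8.23 CPM.

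**Figure D4:**
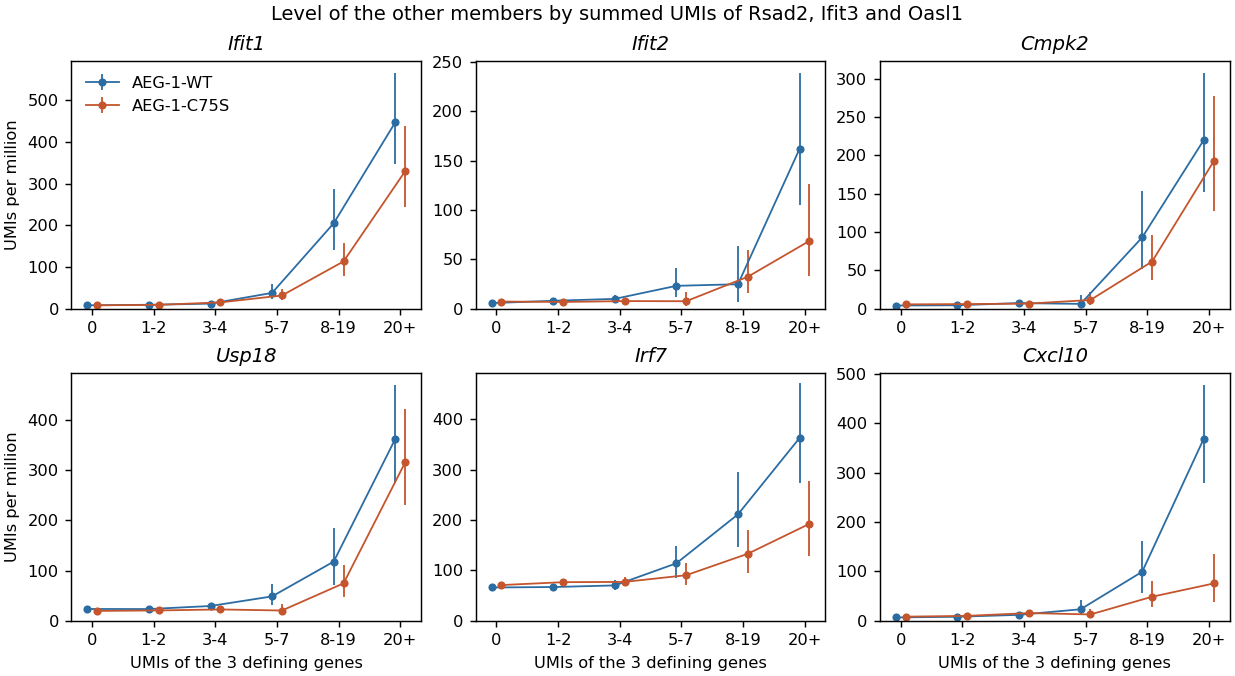
CPM of the other 6 members, pooled over spots binned by the summed UMIs of Rsad2, Ifit3 and Oasl1, in the AEG-1-WT and AEG-1-C75S sections, with 95% Poisson intervals; the y axes differ between panels. Levels of Ifit1 go from 8.30 and 8.23 CPM at 0 UMIs to 447 and 330 CPM at 20 or more, where Cxcl10 stands at 369 CPM in AEG-1-WT liver and 75.6 CPM in AEG-1-C75S.

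The brightest focus of AEG-1-WT held every measured member at once, in 16523 UMIs, which is about the section's median depth. It had 68 UMIs of Rsad2, 37 of Cxcl10, 22 of Oasl1, 20 of Irf7, 19 of Ifit1, 18 of Ifit3, 18 of Usp18, 16 of Ifit2 and 10 of Cmpk2. The second focus was alike in Rsad2 (63) and Ifit1 (21) but had 8 UMIs of Cxcl10 and 3 of Ifit2. The brightest focus of AEG-1-C75S had 46 UMIs of Rsad2, 19 of Ifit3, 15 of Usp18 and 14 of Ifit1, with 1 UMI each of Cxcl10 and Ifit2. The fourth in that section had 25 UMIs of Ifit3 and 15 of Rsad2, 11 each of Cmpk2 and Usp18, and none of Cxcl10 or Ifit2. These bright foci thus differed in how many UMIs of each member they held.

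All 9 measured members were present together in 7 of 38 AEG-1-WT foci and 6 of 49 AEG-1-C75S foci, every one of them with 10 or more UMIs of the defining genes. The median focus held 6 of the 9 in both sections. Spearman correlations over foci were taken on UMIs divided by the total UMIs of the spot. Between the defining sum and the sum of the other 6 the correlation was 0.79 in AEG-1-WT (n = 38 spots). In AEG-1-C75S it was 0.71 (n = 49 spots). Among the 36 pairs of members it ranged from 0.10 to 0.79 (median 0.48) in AEG-1-WT liver and from 0.08 to 0.76 (median 0.33) in AEG-1-C75S. These are descriptions, since the spots share a library and vary in depth. Both sides of each correlation are divided by the same spot total, which can raise the coefficient where counts are few. The closest pairs were Ifit1 with Usp18 in AEG-1-WT liver and Rsad2 with Ifit1 in AEG-1-C75S.

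Spots outside the foci also held the other members. The sum of Ifit1, Ifit2, Cmpk2, Usp18 and Cxcl10 reached 5 UMIs in 18 spots outside the foci of AEG-1-WT and in 26 of AEG-1-C75S, against 19 focal spots in each section. It reached 10 in 2 spots outside the foci of AEG-1-WT and in 2 of AEG-1-C75S, against 12 and 9 focal spots. Its highest value outside was 10 and 11 UMIs, and inside it was 100 and 36.

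Among the 12857 genes that reached 20 UMIs when both sections were added, 20 were called higher in foci and 5 lower (0.0389%). Of the 20, 8 were members, and 16 belonged to the lists of genes drawn up for this work. Both counts include the 3 defining genes, whose own UMIs chose the spots. Apart from members, the called genes were mostly interferon-induced by background knowledge: Oasl2, Ifi44, Ifi47 and Phf11b of the other interferon-stimulated genes, and Gbp2, Gbp6, Igtp and Cd274 of the genes best known from interferon-γ. Outside the lists were Ifi208, a DNA-binding protein of the interferon-inducible p200 family, Phf11d, a relative of Phf11b, Cd69, an activation marker of lymphocytes, and Trbv17, a T cell receptor segment. The last 2 rested on 5 and 6 UMIs (Cd69) and 2 and 3 UMIs (Trbv17) in wild-type and AEG-1-C75S foci. All 5 Cd69 and both Trbv17 UMIs of AEG-1-WT lay in its brightest focus. The genes called lower, Fmn1, Slc35c2, Rtel1, Klf12 and Rrp7a, had 2 to 7 UMIs in AEG-1-WT foci, and none of them was called in foci with 10 or more UMIs, where 1 other gene was (0.00778%).

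Without the brightest focus of each section, 12 of the 20 stayed called. They were the same 8 members, the 3 defining genes among them, with Cd274, Gbp2, Ifi47 and Oasl2. In foci with 10 or more UMIs 44 genes were called higher, all 20 among them.

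**Figure D5:**
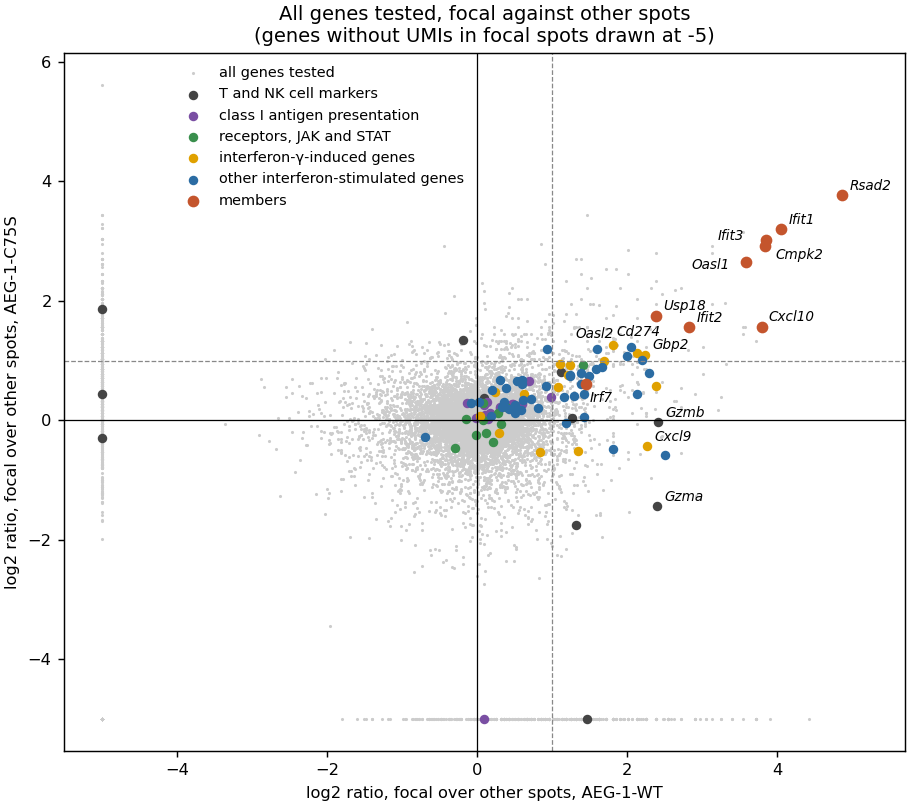
Log2 ratio of CPM, focal over other spots, in the AEG-1-WT section (x) and the AEG-1-C75S section (y) for 12857 genes, with members, 3 pathway lists, class I antigen presentation and T and NK cell markers coloured and dashed lines at 2-fold; genes with no UMI in foci are drawn at -5. Members lie at the upper right, with Rsad2, a defining gene, at 4.87 and 3.77, while Cxcl9, Gzma and Gzmb lie right of centre but not above it.

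Along the pathway, no UMI of the ligands examined was seen in foci. Interferon-β was not analysed here. Of 16 interferon genes in the tables, mostly of the interferon-α family, with Ifnz and Ifng among the rest, none had a UMI in the foci of either section. A count of 0 allows up to 3.80 CPM in AEG-1-WT foci and 2.42 CPM in AEG-1-C75S foci (3 counts of the total, for the sum of the list). Outside the foci the list had 15 UMIs in AEG-1-WT liver and 10 in AEG-1-C75S, most of them Ifnz (9 and 5) and Ifng (3 and 4). Levels this low in the whole tissue leave a difference not detectable at this depth.

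Of 11 receptor, JAK and STAT genes tested, none was called. With 0.156% of all genes tested called higher, that count of 0 does not set the list apart. Ifnar1 and Ifnar2, the chains of the type I receptor, had log2 ratios of -0.15 (-0.81 to 0.45) and 0.09 (-0.17 to 0.33) in AEG-1-WT liver and 0.02 (-0.47 to 0.47) and 0.01 (-0.20 to 0.21) in AEG-1-C75S. Stat2 was at 0.39 and 0.23 and Irf9 at 0.28 and 0.12, with intervals that reached 0.

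Of 17 sensors and adaptors of nucleic acid sensing, none was called over all foci and 4 in foci with 10 or more UMIs. The shares of all genes tested called higher were 0.156% and 0.342%. Those 4, Ddx58 (RIG-I), Ifih1 (MDA5), Dhx58 (LGP2) and Zbp1, are themselves interferon-stimulated and stand in both lists. Zbp1 had log2 ratios of 1.67 (1.33 to 1.99) and 0.90 (0.52 to 1.26) over all foci. The adaptor Mavs, by comparison, was at 0.14 (-0.26 to 0.51) and -0.08 (-0.46 to 0.28). Of 7 feedback regulators none was called, which beside the share over all genes does not set them apart. Socs1, an inhibitor of JAK kinases, had 7 UMIs in AEG-1-WT foci, 5 of them in the brightest, and 3 in AEG-1-C75S foci.

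Of 42 other interferon-stimulated genes tested, 4 were called higher and none lower, with medians of 0.93 in AEG-1-WT liver and 0.48 in AEG-1-C75S on the log2 scale against -0.02 and -0.01 over all genes tested. In foci with 10 or more UMIs 13 of the 42 were called. Values for genes found nearly everywhere and for sparser ones follow. Bst2 (tetherin), Ifitm3 and Ly6e, each detected in at least 94.3% of other spots, had log2 ratios of 0.43, 0.19 and 0.34 in AEG-1-WT liver and 0.20, 0.08 and 0.22 in AEG-1-C75S. Oasl2, detected in 28.1% and 30.4% of other spots, was at 1.60 (1.13 to 2.04) and 1.19 (0.76 to 1.59). Ifi44, in 14.8% and 15.7% of other spots, stood at 41.8 CPM in AEG-1-WT foci against 9.07 CPM, and at 18.6 CPM in AEG-1-C75S foci against 9.25 CPM. Ifi47, a GTPase of the immunity-related family, stood at 141 CPM in AEG-1-WT foci against 35.2 CPM, and at 96.0 CPM in AEG-1-C75S foci against 45.6 CPM.

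Of 16 genes best known from interferon-γ, 4 were called higher, and 7 in foci with 10 or more UMIs. Their medians were 1.23 in AEG-1-WT liver and 0.57 in AEG-1-C75S. Igtp, an immunity-related GTPase, had 162 and 163 UMIs in foci, which were 205 CPM against 63.2 CPM in other spots of AEG-1-WT, and 131 CPM against 65.7 CPM in AEG-1-C75S, the latter at the edge of the 2-fold rule. The guanylate-binding proteins Gbp2 and Gbp6 were at 2.24 and 2.14 in AEG-1-WT liver and 1.10 and 1.12 in AEG-1-C75S. Cd274, the checkpoint ligand PD-L1, was at 1.81 (1.04 to 2.50) and 1.26 (0.55 to 1.90). Cxcl9, which shares the receptor CXCR3 with Cxcl10, had 46 UMIs in AEG-1-WT foci, 22 of them in the brightest, and 14 in AEG-1-C75S foci. Its log2 ratios were 2.27 (1.80 to 2.71) and -0.44 (-1.32 to 0.32), and 1.36 (0.71 to 1.95) in AEG-1-WT without the brightest focus.

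None of 16 genes of class I antigen presentation was called, and the sum of the list was 0.16 (0.11 to 0.20) on the log2 scale in AEG-1-WT liver and 0.07 (0.03 to 0.11) in AEG-1-C75S. B2m, the class I light chain, was at 0.14 and 0.03, and H2-K1 at -0.01 and 0.04. Tap1, a chain of the peptide transporter, was at 0.99 (0.57 to 1.39) and 0.39 (-0.06 to 0.82). None of 6 class II genes, 17 NF-κB-driven cytokines and chemokines, 12 acute-phase genes or 14 stress and cell death genes was called in either direction. Over all genes tested 0.156% were called higher and 0.0389% lower, so these counts of 0, class I included, do not set the lists apart. As sums in AEG-1-WT foci, the NF-κB list was at a log2 ratio of 0.38 (0.19 to 0.57), class II at 0.26 (0.14 to 0.38), stress and cell death at 0.21 (0.03 to 0.39) and the acute-phase list at 0.03 (0.01 to 0.05). In AEG-1-C75S foci the same sums were at 0.06, 0.07, 0.05 and 0.01, with intervals that reached below 0. Without the brightest focus of AEG-1-WT, class II there was at -0.04 (-0.17 to 0.09) and stress and cell death at 0.18 (-0.01 to 0.36). The NF-κB list was then at 0.21 (0.01 to 0.41) and the acute-phase list at 0.02 (0.004 to 0.04).

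Marker lists of other cell types moved little with the foci, with exceptions in each section. Summed hepatocyte genes were at a log2 ratio of 0.01 in AEG-1-WT liver and -0.00 in AEG-1-C75S. Kupffer cell genes (9 of 9 detected, among them Clec4f and Vsig4) were at 0.23 (0.15 to 0.31) and 0.14 (0.08 to 0.20), and ranged from 654 to 3853 CPM over AEG-1-WT foci and from 401 to 6444 CPM over AEG-1-C75S foci. Sinusoidal endothelial genes were at 0.16 (0.04 to 0.28) and 0.08 (-0.01 to 0.18). Red cell genes were lower, at -0.81 (-0.98 to -0.64) and -0.72 (-0.89 to -0.56). Connective tissue genes were lower in AEG-1-WT, at -0.76 (-1.07 to -0.47), and not in AEG-1-C75S, at 0.17 (-0.08 to 0.42). In bulk RNA of a spot, more cells of a type and more RNA per cell cannot be told apart. Whether any of these lists plays a part in the members' levels was not tested.

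T and NK cell markers (11 genes) stood apart in AEG-1-WT, at 1.33 (0.89 to 1.74) against 0.07 (-0.43 to 0.52) in AEG-1-C75S. Their sum ranged from 0 to 1634 CPM over AEG-1-WT foci and from 0 to 604 CPM over its other spots, and from 0 to 302 and 0 to 502 CPM in AEG-1-C75S. Of the 49 UMIs in AEG-1-WT foci, 27 lay in the brightest focus, and without it the ratio was 0.21 (-0.48 to 0.81). That spot held 9 of the 16 Gzma UMIs and 6 of the 8 Gzmb UMIs (granzymes of NK and cytotoxic T cells) found in AEG-1-WT foci, beside its 37 UMIs of Cxcl10 and 22 of Cxcl9. It also held 122 of the 591 class II UMIs. Of the 11 genes, Cd8a, Nkg7 and Prf1 had no UMI in AEG-1-WT foci. They stood at 0.55, 1.16 and 0.43 CPM in its other spots, below the 3.80 CPM that a count of 0 allows. Cd3d, Cd3e and Cd3g had 6, 3 and 4 UMIs in AEG-1-WT foci with 10 or more UMIs. The other 37 foci of AEG-1-WT still gave Ifit1 a log2 ratio of 3.84 (3.51 to 4.16).

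Plasmacytoid dendritic cells are known as strong producers of interferon-α. Their markers (6 genes) summed to 31 UMIs in AEG-1-WT foci and 67 in AEG-1-C75S foci, at log2 ratios of 0.13 (-0.43 to 0.64) and 0.53 (0.16 to 0.89). Without the AEG-1-C75S focus richest in them, which held 9 of the 67, that ratio was 0.35 (-0.05 to 0.73). Most of this sum was Tcf4, with 29.0 of the 35.9 CPM of the list in other spots of AEG-1-WT. In other spots of AEG-1-C75S it had 28.8 of 37.3 CPM. The median log2 ratio of the 5 genes tested was 0.86 in AEG-1-WT liver and 0.83 in AEG-1-C75S. Siglech had 3 UMIs in 2 of 38 AEG-1-WT foci and 7 in 4 of 49 AEG-1-C75S foci, and Ccr9 had 1 and 5. In foci of 10 or more UMIs Siglech was not seen in AEG-1-WT liver. It had 3 UMIs in such foci of AEG-1-C75S, at a log2 ratio of 2.76 (0.43 to 4.39) over all spots below 10. Monocyte genes were at 0.76 (0.39 to 1.11) and 0.20 (-0.10 to 0.49). Most of that sum was Plac8, with 46.2 of the 51.6 CPM of the list in other spots of AEG-1-WT. In other spots of AEG-1-C75S it had 62.7 of 70.1 CPM. Lyz2 had no UMI in AEG-1-WT foci and Chil3 none in AEG-1-C75S foci. B cell and plasma cell, conventional dendritic cell, stellate cell, bile duct, platelet and neutrophil lists had intervals that reached 0 in both sections.

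Every class of the lobule held foci. Spots of each section were put in 5 classes of equal size by a score of 3 pericentral genes (Cyp2e1, Cyp1a2 and Oat) over 7 periportal genes (such as Cyp2f2 and Hal). From the most periportal to the most pericentral class, AEG-1-WT had 6, 9, 8, 10 and 5 foci and AEG-1-C75S had 6, 16, 10, 11 and 6. The middle classes were also the deeper ones, with the highest median depth in the third of AEG-1-WT (18075 UMIs) and the second of AEG-1-C75S (21626 UMIs). The most periportal class held 15.8% of AEG-1-WT foci (6.02 to 31.3) and 12.2% of AEG-1-C75S foci (4.63 to 24.8), intervals that hold the 20% of an even spread. This split depended on the threshold. With 300 CPM in place of 5 UMIs, the AEG-1-C75S foci numbered 35, of which 11 (31.4%, 16.9 to 49.3) lay in the most periportal class and 10 (28.6%, 14.6 to 46.3) in the most pericentral. AEG-1-WT had 5 of 31 foci in each of these classes by that threshold (16.1%, 5.45 to 33.7). Of foci with 10 or more UMIs, 2 of 14 in AEG-1-WT liver and 6 of 16 in AEG-1-C75S lay in the most periportal class. The most pericentral class held 1 and 3 of them.

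Outside the foci none of the 9 members was past 1.5-fold between AEG-1-C75S and AEG-1-WT in either direction. By that rule 2.12% of all genes tested were higher and 5.27% were lower, so this count does not set the members apart. Rsad2 stood at 14.7 CPM in AEG-1-WT liver and 19.2 in AEG-1-C75S, a log2 ratio of 0.39 (0.24 to 0.55). Cmpk2, its neighbour, was at 0.38 (0.10 to 0.66), Cxcl10 at 0.35 (0.14 to 0.57), Ifit3 at 0.30 (0.14 to 0.45) and Irf7 at 0.16 (0.08 to 0.23). Oasl1, at -0.33 (-0.53 to -0.14), and Usp18, at -0.23 (-0.36 to -0.09), went the other way. Ifit1 and Ifit2 were at 0.06 and 0.00 with intervals that reached 0. For 7 of the 9 the interval left out 0, but it covers counting error in 1 animal per genotype, and the same count was 1 of 6 in spots with no UMI of the defining genes. The share of all genes whose interval left out 0 is not given here, so the count of 7 is a description.

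Within foci the members had lower CPM in AEG-1-C75S, from -0.54 for Cmpk2 (-1.12 to 0.03) to -1.87 for Cxcl10 (-2.48 to -1.29). The foci were chosen by the members in UMIs and were deeper in AEG-1-C75S, so these values are a description. The brightest AEG-1-WT focus held 37 of the 84 Cxcl10 UMIs and 16 of the 40 Ifit2 UMIs of that section's foci. Without the brightest focus of each section, Cxcl10 stood at 60.8 CPM in AEG-1-WT foci and 28.8 CPM in AEG-1-C75S foci. Ifit2 then stood at 31.1 and 20.6 CPM, and every other member also stayed lower in AEG-1-C75S. With spots chosen without Ifit3 all 9 members stayed below 0, 8 with intervals below 0, and without Oasl1 all 9 did, 9 with such intervals. The AEG-1-C75S spots were again deeper by these choices, with medians of 24751.5 and 23816 UMIs against 16772.5 in AEG-1-WT by both. The share of all genes below 0 in foci is not given here for any choice, so such counts of members are a description. Among the choices by 2 of the defining genes, the direction changed for some members only when Rsad2 was left out. Spots chosen by Ifit3 and Oasl1 alone gave Rsad2 618 CPM in AEG-1-WT liver and 666 in AEG-1-C75S, a log2 ratio of 0.11 (-0.17 to 0.38). Ifit3, Cmpk2 and Usp18 were also above 0 in those spots, and Cxcl10 alone had an interval below 0, at -1.96 (-2.97 to -1.07). With foci chosen at 300 CPM, where the median depth was 16393 UMIs in AEG-1-WT liver and 15191 in AEG-1-C75S, all 9 members stayed below 0, from -0.05 for Cmpk2 (-0.64 to 0.53) to -1.56 for Cxcl10 (-2.24 to -0.93), and 5 intervals left out 0. The comparisons with other choices of spots were added after the values were seen.

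Over all spots of a section, few genes tracked the defining sum. The 10 genes outside the members with the highest Pearson correlation in both sections were Tmsb4x, Cd68, Rgl1, Lyn, Clec4f, Sdc3, Lgmn, Ly86, Klf2 and Cd74, with a coefficient of 0.11 in AEG-1-WT (2309 spots) and 0.16 in AEG-1-C75S (2163 spots) for Tmsb4x. In counts this sparse, correlations of that size are no finding.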

How the data were processed

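Spot by gene count matrices were made by the authors with Space Ranger (version 2.0.1) against mm10, per the labels and methods, and deposited as UMI counts for 1 section per genotype (2316 and 2167 spots, 19465 gene rows). Each gene is read through designed probes, so a change in the sequence or length of a transcript outside them is not seen. The counts were used as deposited. Spots above 50000 UMIs were left out (7 and 4 spots), a limit that the authors used too. Their clusters, made with Seurat (version 4.3.0), were not used. Counts were summed over focal and over other spots of a section and divided by the summed UMIs of those spots (CPM). Sums carry exact Poisson intervals, and shares and ratios exact binomial (Clopper-Pearson) intervals, at 95%, which cover counting error only. No test was run, since each genotype is 1 section. Genes that reached 20 UMIs when both sections were added were tested against the call rule of 2-fold. Levels of different genes were not compared. The members, the gene lists and the rules were chosen with earlier results of these sections known. Named genes were all members, any list gene, called genes outside the lists (at most the 15 with the largest ratios higher and the 10 lower) and the 10 genes most correlated with the defining sum. Spot positions were not used here, and 1 gene of the lists is not reported here. Scripts ran in Python (version 3.11.15) with numpy (version 2.4.6), scipy (version 1.17.1) and pandas (version 2.3.3). The intervals and calls were tested on simulated sums with counting error alone. Those sums hold no clumping of UMIs in single spots, so how the intervals fare under clumping was not tested. Alternatives changed the threshold, the defining genes, the comparison spots, the totals, the fold and the zone score.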

Additional observations from a re-analysis of the deposited data

Results flagged for a closer look

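Of 12857 genes, 1 was at least 2-fold higher in foci of one section and at least 2-fold lower in foci of the other with both counting intervals on those sides. Fam122a had 14 UMIs in AEG-1-WT foci, at a log2 ratio of 1.21 (0.32 to 1.97), and 4 UMIs in AEG-1-C75S foci, at -1.43 (-3.31 to -0.06). The difference of the ratios, AEG-1-C75S minus AEG-1-WT, was -2.63. With 1 section per genotype this difference was not tested, and the gene was named after its values were seen.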

How the results depend on the processing

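No paired analysis was possible because each genotype has 1 section. The number of foci, 38 in AEG-1-WT liver and 49 in AEG-1-C75S, is set by the threshold. It was 177 and 210 at 3 UMIs, 84 and 94 at 4, 16 and 19 at 8, and 14 and 16 at 10. It was 19 and 11 when spots were chosen without Rsad2, and 20 and 22 without Ifit3. The count of genes called higher, 20 as reported, was 7 at a threshold of 3 UMIs, 10 at 4, 41 at 8 and 44 at 10, and 42 with spots chosen without Rsad2 and 35 without Ifit3. It was 12 without the brightest focus of each section, 36 at a fold of 1.5 and 8 at a fold of 3. The count called lower, 5 as reported, was 0 at thresholds of 3 and 8 UMIs and without Oasl1, 1 at 4 and 10 UMIs, without Rsad2 and at a fold of 3, 2 without Ifit3 and 3 at 300 CPM. None of the 5 was called lower with spots chosen at those thresholds or without a defining gene. At a fold of 3 the gene called was Rrp7a, 1 of the 5. With other comparison spots, totals or centring, with no filter on spot totals and without the brightest foci, 4 or 5 kept the call. With equal weight per spot 2 kept it. Of the 6 other members, 3 were called at 3 UMIs and 3 at a fold of 3, and 5 or 6 under every other alternative run for them, of which the count at other folds was added after seeing the data. Of the other interferon-stimulated genes, 4 as reported, 0 were called at 3 and 4 UMIs, 12 at 8, 13 at 10, 9 at 300 CPM, 12 without Rsad2, 9 without Ifit3 and 2 without the brightest foci. The most periportal class held 6 foci in each section as reported. In AEG-1-WT it held 26 at 3 UMIs, 11 at 4, 3 at 8, 2 at 10 and 3 without Rsad2, and in AEG-1-C75S 32 at 3, 14 at 4 and 11 at 300 CPM. The most pericentral class held 5 and 6 as reported. In AEG-1-WT it held 27 at 3 UMIs, 10 at 4, 1 at 8, 1 at 10, 3 without Rsad2, 2 without Ifit3 and 3 without Oasl1, and in AEG-1-C75S 38 at 3, 15 at 4, 3 at 10, 10 at 300 CPM and 3 without Rsad2. Of genotype ratios outside the foci, 7 left out 0 as reported and 1 did in spots with no UMI of the defining genes, where the 3 defining genes have no value. The cause of these shifts was not tested, apart from the thresholds and the left-out spots, which change the spots by construction. The log2 ratios of the 6 other members in foci kept their sign under every alternative run, with Irf7 in AEG-1-C75S the lowest, from 0.21 to 1.21. Those of the 3 defining genes did too, but the choice of spots by their own UMIs required it, except where the gene was left out. The genotype ratios of Ifit1 and Ifit2 outside the foci turned sign under an alternative, within -0.01 to 0.17 and -0.07 to 0.35. The defining genes have no ratio against spots chosen for holding none of them. Depth limits the faint foci (5 to 7 UMIs), where Cmpk2 had 3 and 9 UMIs.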
